A study of Mus musculus with 12 samples.

Results

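Interferon-stimulated genes are the transcripts that rise when a cell senses an interferon. A list of 44 of them, matched by gene symbol to the deposited table of read counts, was described in mouse bone marrow cells. The table held 43 of the 44 among its 19910 genes, and all 43 were among the 10993 genes with enough reads to be tested. Mx2 was not analysed here.

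Interferons bind receptors at the cell surface, receptor-linked kinases such as JAK1 and TYK2 pass the signal on, and a complex that includes STAT2 and IRF9 binds the interferon-stimulated response element in the promoters of these genes. Interferon gamma works mainly through a separate element, the gamma-activated site. The products degrade viral RNA, modify proteins with the ubiquitin-like ISG15, block virus entry or release, and feed back on the pathway. In marrow, interferons are known to act on blood-forming stem cells and on the myeloid cells that descend from them.

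All 4 groups were marrow from female C57BL/6J mice aged 6 to 10 weeks, exposed to retrovirus made in 293T17 packaging cells, and the control cells received retrovirus as well. The groups carried empty vectors (EMPTY + EMPTY), mutant SETBP1 (D868N) with an empty vector, mutant NRAS (G12D) with an empty vector, or both mutants, and are called empty, SETBP1, NRAS and SETBP1+NRAS. NRAS is a membrane-bound switch that feeds MAPK signalling, and SETBP1 is found in the nucleus, where it binds DNA. The series title concerns the joint action of both mutants on that signalling in leukemia. The labels call the cells murine leukemia cells and number 3 replicates per group. Nothing in them tells if a replicate is its own mouse or transduction, so the p-values measure only the spread between these libraries, which may be technical.

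Promoter sequences show what the listed genes share beyond their names. In the RefSeq table for GRCm38.p6, with windows of 300 bases from 250 before to 50 after the annotated start, 34 of the 44 genes had at least 1 promoter. The core of the interferon-stimulated response element, searched as GAAA, any 2 bases and GAAA on both strands with overlapping matches counted, was found in 19 of these 34 genes. Per promoter it was in 20 of 41, or 48.8%, against 3.44% of all 32851 promoters in the table. The core of the gamma-activated site, searched as TTCNNNGAA on both strands, was found in 9 of the 34 genes. Per promoter it was in 22.0%, against 8.30% of all promoters, and in Bst2 and Ifitm3 its match overlapped one of the response element core. A match is a description of the letters and does not show that a factor binds there.

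Stretches before the start are shown for 6 genes with a response element core that passed a test in the comparisons below. They hold no annotated exon in GENCODE M21 and end before the gene's span in RefSeq. They show the same core in genes that rose with NRAS (Bst2 and Oas3) and in genes that fell with it (Gbp3 and Gbp7). Ifit1, Isg15 and Oas3 followed the rule for named genes, while Bst2, Gbp3 and Gbp7 were chosen after their values were seen. In Apobec3, Gbp2, Ddx58 and Ifitm3 the core lies within an annotated exon and is not shown, nor is that of Ifit3, which lies inside its RefSeq gene span. The stretches are written 5′ to 3′ on the strand of the gene, and capitals mark the response element core on either strand.
Isg15, chr4:156200819-156200978, minus strand: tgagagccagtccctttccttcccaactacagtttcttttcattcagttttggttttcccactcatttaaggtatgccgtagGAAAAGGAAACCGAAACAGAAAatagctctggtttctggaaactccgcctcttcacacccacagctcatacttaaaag
Bst2, chr8:71537473-71537632, minus strand: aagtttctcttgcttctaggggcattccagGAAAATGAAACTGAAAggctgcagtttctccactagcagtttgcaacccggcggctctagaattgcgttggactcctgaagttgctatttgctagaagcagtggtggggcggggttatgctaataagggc
Ifit1, chr19:34640744-34640870, plus strand: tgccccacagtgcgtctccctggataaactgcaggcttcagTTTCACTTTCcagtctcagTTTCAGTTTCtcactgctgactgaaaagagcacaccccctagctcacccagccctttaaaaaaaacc
Gbp3, chr3:142559884-142560015, plus strand: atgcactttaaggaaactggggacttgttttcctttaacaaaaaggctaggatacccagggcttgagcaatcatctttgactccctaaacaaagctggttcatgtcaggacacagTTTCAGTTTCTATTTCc
Gbp7, chr3:142530176-142530335, plus strand: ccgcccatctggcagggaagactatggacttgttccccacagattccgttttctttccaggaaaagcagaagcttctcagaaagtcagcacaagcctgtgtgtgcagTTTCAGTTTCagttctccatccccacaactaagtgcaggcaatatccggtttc
Oas3, chr5:120777685-120777795, minus strand: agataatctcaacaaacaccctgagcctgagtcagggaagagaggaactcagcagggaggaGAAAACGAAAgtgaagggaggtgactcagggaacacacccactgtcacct

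Isg15 had 3 overlapping cores that began at -78, -72 and -66 from its start, and Bst2 had 2, at -130 and -124. The paired cores of Ifit1 lay at -104 and -85 and those of Ifit3 at -156 and -122. Several of the genes are also neighbours: Ifit2, Ifit3 and Ifit1 lie together on chromosome 19, Gbp7, Gbp3 and Gbp2 on chromosome 3, Oas2, Oas3 and Oas1a on chromosome 5, and Parp14, Dtx3l and Parp9 on chromosome 16. As the values below show, genes that share the core did not all move the same way between the groups.

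**Figure D1:**
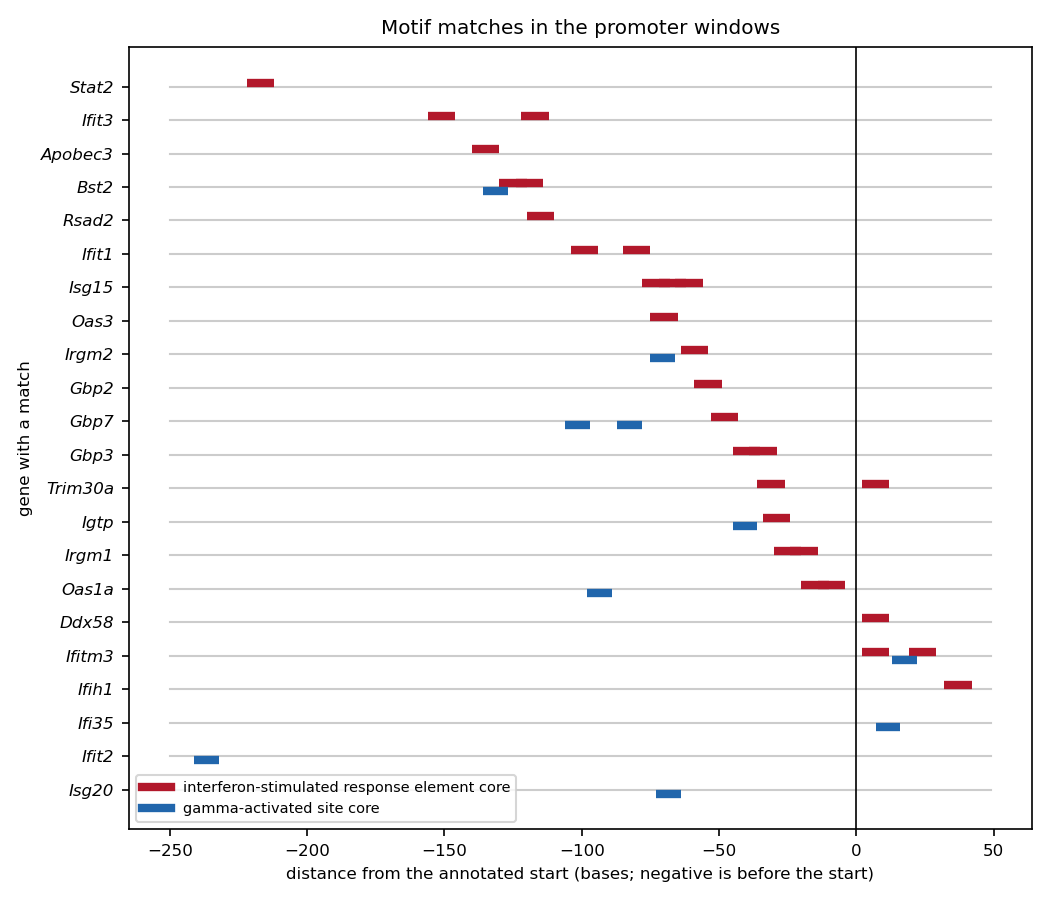
Positions of matches to the cores of the interferon-stimulated response element (red) and the gamma-activated site (blue) in the promoter windows of the listed genes that hold either, on an axis of distance from the annotated start in bases. The response element core was in 19 of the 34 genes with a promoter, mostly before the start, and in Ddx58, Ifitm3, Ifih1 and 1 of 2 promoters of Trim30a after it.

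Total counts ran from 7085894 to 8864919 per library, with 11835 to 12800 genes detected. As a check of the labels, Nras had 626 to 741 counts in the libraries without mutant NRAS and 10517 to 13502 in those with it. Setbp1 had 0 counts in every library labelled without mutant SETBP1 and 5 to 17 in those with it, too few to measure its level. SETBP1 replicate 3 stood apart: across genes its log2 expression correlated with SETBP1 replicates 1 and 2 at r = 0.951 and 0.958, against 0.986 to 0.992 for the other pairs within groups. Counts of listed genes that passed a test are therefore given with and without it.

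Per kilobase of transcript, the level over all 12 libraries was highest for Ifitm3, an inhibitor of virus entry, at 1298 normalised CPM (CPM being read counts scaled by library size) per kilobase. Bst2, a membrane tether that holds budding virus at the cell surface, followed at 370 and the secreted glycoprotein gene Lgals3bp at 194. The lowest were Parp14 at 5.13, the RNA sensor gene Ifih1 at 5.59 and the guanylate-binding GTPase gene Gbp2 at 6.87. The smallest count of any listed gene in any library was 58.

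With mutant SETBP1 alone, 13 of the 43 genes rose against empty vectors and 0 fell. Among all genes tested, 8.31% rose and 6.55% fell (edgeR quasi-likelihood test, Benjamini-Hochberg adjusted p under 0.05 over 10993 genes). The median log2 fold change of the 43 was 0.29, against -0.01 over all genes, and 33 were positive. Values of the 2 groups did not overlap for 18 genes that were higher and 2 that were lower, against 16.7% and 16.5% of all genes. These are bulk libraries, in which more cells of a type and more RNA per cell cannot be told apart.

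The largest rise was in Irf7, the transcription factor that amplifies interferon production. It stood at 141, 165 and 141 normalised CPM with empty vectors and at 224, 258 and 439 with SETBP1, while the NRAS libraries read 174, 259 and 205 and the SETBP1+NRAS libraries 209, 192 and 272. All 3 SETBP1 libraries lay above the empty libraries, with replicate 3 far above replicates 1 and 2. The log2 fold change was 1.04 (SE 0.22, adjusted p 0.00985), and without SETBP1 replicate 3 it was 0.69 (SE 0.14, adjusted p 0.00244). Irf9 and Stat2, whose products belong to the transcription complex of type I interferon signalling, stood at log2 0.06 (SE 0.08) and 0.09 (SE 0.10) and did not pass the test.

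Isg15, the ubiquitin-like modifier, read 41.6, 47.7 and 45.7 normalised CPM with empty vectors and 69.1, 83.5 and 112 with SETBP1. With NRAS it read 55.1, 72.2 and 49.2, and with SETBP1+NRAS 45.2, 34.8 and 59.7. SETBP1 and empty did not overlap, and the SETBP1+NRAS libraries fell on both sides of the empty ones. The rise with SETBP1 was log2 0.97 (SE 0.21, adjusted p 0.0102), or 0.76 (SE 0.17) without SETBP1 replicate 3. Of its partners, Usp18, the protease that removes ISG15 and damps the receptor, was at 0.73 (SE 0.25, adjusted p 0.064), and Herc6, an ISG15 ligase in mouse, at -0.24 (SE 0.15). Neither passed the test. Herc6 shares 23.8% of its 50-base stretches with the annotated gene Gm45193, so its count is uncertain.

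Of the Ifit genes, whose products bind viral RNA, 2 of 3 rose. Ifit1 read 36.6, 45.1 and 43.7 normalised CPM with empty vectors, 57.4, 63.1 and 119 with SETBP1, 44.9, 47.9 and 37.6 with NRAS, and 31.2, 29.6 and 52.1 with SETBP1+NRAS. The SETBP1 group alone lay above all 3 empty libraries, with its replicate 3 far above the rest. The log2 fold change was 0.93 (SE 0.26, adjusted p 0.0296), and 0.53 (SE 0.17, adjusted p 0.0441) without that library. Ifit3 rose by 0.79 (SE 0.22, adjusted p 0.0296), or 0.56 (SE 0.18) without it. Ifit3 shares 51.2% of its 50-base stretches with Ifit3b, so its count is uncertain. Ifit2 was at 0.19 (SE 0.22).

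All 3 genes of membrane-linked or secreted effectors rose: Bst2 at log2 0.83, Ifitm3 at 0.66 and Lgals3bp at 0.41. Ifitm3 stood at 544, 685 and 666 normalised CPM with empty vectors and 760, 981 and 1250 with SETBP1, with no overlap between the groups. Apobec3, a cytidine deaminase that acts on retroviruses, read 169, 159 and 168 normalised CPM with empty vectors and 225, 221 and 239 with SETBP1. The groups did not overlap and SETBP1 replicate 3 lay close to the others. Its log2 fold change was 0.47 (SE 0.07, adjusted p 0.0024), and 0.43 (SE 0.07) without SETBP1 replicate 3.

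In the OAS family, enzymes that activate RNA decay by RNase L or are related to those that do, Oasl1 rose by log2 0.85 (SE 0.21) and Oas1a by 0.43 (SE 0.12). Oas1a shares 57.6% of its 50-base stretches with Oas1g and is uncertain. Oas2, Oas3 and Oasl2 did not pass. Xaf1, which promotes cell death, rose by 0.74 (SE 0.18), Ifi35 by 0.51 (SE 0.15) and Gbp3 by 0.49 (SE 0.12).

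In 3 classes, of at most 4 genes each, no gene passed the test, where 8.31% of all genes rose and 6.55% fell. With so few genes, the lack of a call does not set a class apart. The 4 RNA and DNA sensors lay between log2 -0.30 (Ddx58) and 0.37 (Zbp1). Parp9, Parp14 and Dtx3l, neighbours whose products act on ADP-ribosylation and ubiquitin, were all negative, at -0.09, -0.30 and -0.42, also under each other scaling tried. Without SETBP1 replicate 3 the lowest value of any of the 43 genes was -0.24. Parp9 read 65.8, 56.4 and 71.1 normalised CPM with empty vectors, 59.9, 59.7 and 62.5 with SETBP1, 51.8, 65.2 and 64.1 with NRAS and 49.8, 45.4 and 58.8 with SETBP1+NRAS, and these groups overlap save for the last against SETBP1. Mx1, a dynamin-like GTPase gene whose product blocks viruses inside the cell, was at 0.60 (SE 0.24, adjusted p 0.104). Its libraries read 27.8, 22.0 and 19.97 with empty vectors, 26.5, 32.5 and 47.1 with SETBP1, 33.4, 38.2 and 29.4 with NRAS, and 26.2, 19.8 and 38.3 with SETBP1+NRAS. The NRAS libraries alone lay wholly above the empty ones.

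Without SETBP1 replicate 3, 12 of the 43 genes rose with SETBP1 and 0 fell, against 7.61% and 7.73% of all genes, and the median was 0.22. All 12 had been called with that library, and Ifi35 lost its call at log2 0.31 (SE 0.11, adjusted p 0.0601). Single control libraries moved the count further, to 4 rises without empty replicate 1 and 3 without empty replicate 3, where 2.56% and 2.11% of all genes rose. Leaving out SETBP1 replicate 1 gave 20 rises and 3 falls, against 15.4% and 13.3% of all genes. A fit of the 6 empty and SETBP1 libraries alone called 3 listed genes higher and 0 lower, against 0.589% and 0.440% of all genes. Irf7 did not pass in that fit (edgeR adjusted p 0.0714) or without empty replicate 3 (0.054), and Isg15 did not without empty replicate 1 (0.0515). Ifit1 did not pass in that fit (0.106) or without any 1 empty library (0.0582 to 0.111).

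**Figure D2:**
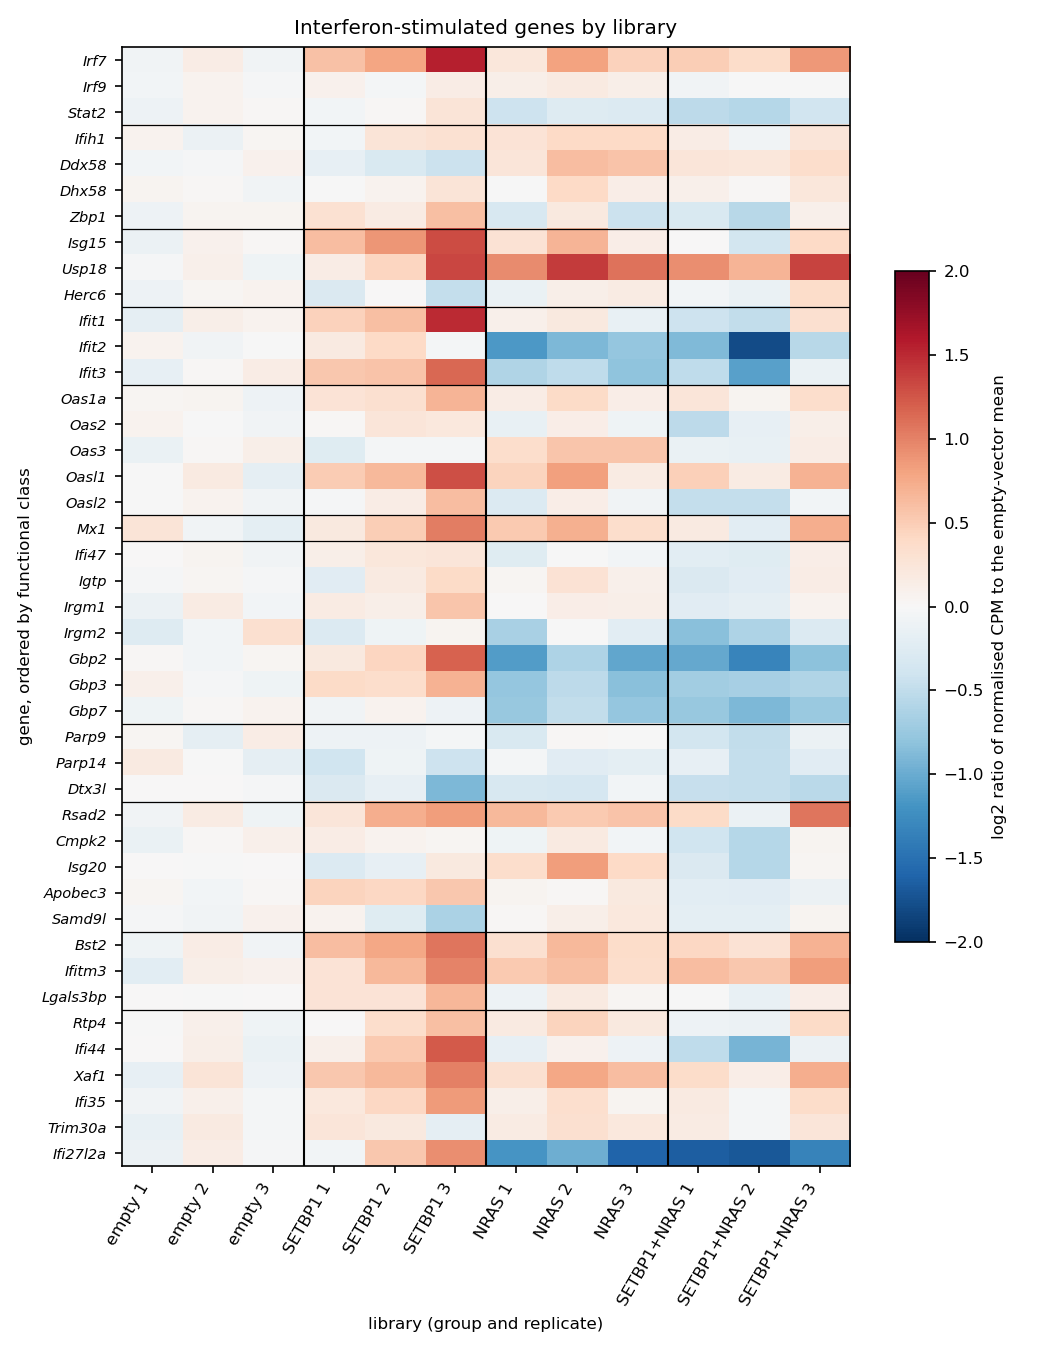
Heat map of the 43 interferon-stimulated genes (rows, by functional class) in the 12 libraries (columns), coloured by the log2 ratio of normalised CPM to the mean of the empty libraries. The SETBP1 columns are mostly red, with replicate 3 the strongest, and the Ifit2, Gbp and Ifi27l2a rows turn blue in all 6 libraries with NRAS.

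The distance of SETBP1 replicate 3 from its group varied with transcript length. That library held the highest SETBP1 value for 33 of the 43 genes, against 42.3% of all genes. Its log2 difference from the mean of replicates 1 and 2 had a median of 0.48 for the 12 listed genes with transcripts under 2000 bases, all 12 above 0. For the 23 of 2000 to 4000 bases the median was 0.34, and for the 8 of 4000 bases or more it was -0.15, with 3 above 0. Over all genes tested the 3 medians were 0.25, 0.05 and -0.41, so that the listed genes lay above all genes of their length range in each. Across the 43 genes the difference and length had r = -0.56 and rho = -0.68, and across all 10993 genes r = -0.40 and rho = -0.47. These points share the 3 SETBP1 libraries, and genes are not independent replicates. The part of length in the SETBP1 result was not tested.

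**Figure D3:**
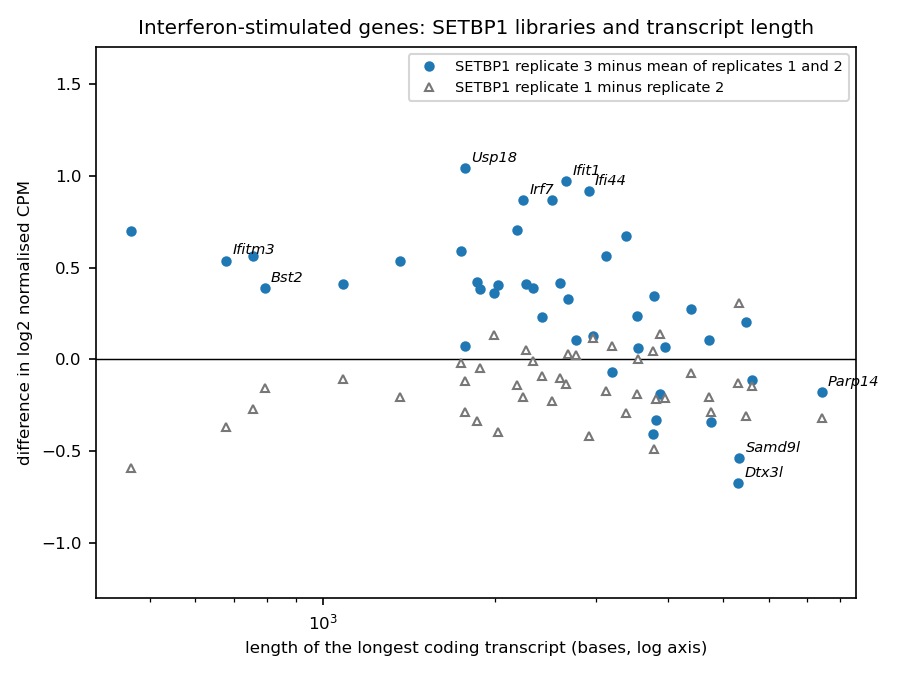
Difference in log2 normalised CPM between SETBP1 replicate 3 and the mean of SETBP1 replicates 1 and 2 (filled circles), and between replicates 1 and 2 (open triangles), against length of the longest coding transcript on a log axis, 1 point per listed gene. The circles fall with length, from a median of 0.48 under 2000 bases to -0.15 at 4000 bases or more.

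With mutant NRAS alone, 8 of the 43 genes rose and 7 fell against empty vectors. These shares are near the 17.0% and 15.5% of all genes that did so, and the median was 0.09 against -0.01 over all genes. Values of the 2 groups did not overlap for 15 genes that were higher and 8 that were lower, against 28.4% and 27.9% of all genes. The rises took in RNA sensors, Usp18 and Oas3, and the falls took in Ifit2, Ifit3 and the 3 guanylate-binding genes.

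Usp18 rose most. It read 110, 120 and 105 normalised CPM with empty vectors, 123, 150 and 281 with SETBP1, 215, 293 and 236 with NRAS and 213, 178 and 284 with SETBP1+NRAS. Each library with NRAS lay above every empty library. The log2 fold change was 1.15 (SE 0.25, adjusted p 0.00293) and the fold 2.22.

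Both sensors of viral double-stranded RNA rose, Ddx58, which encodes RIG-I, by log2 0.49 (SE 0.11, adjusted p 0.0032) and Ifih1, which encodes MDA5, by 0.36 (SE 0.13, adjusted p 0.0467). Ddx58 read 67.3, 69.1 and 74.2 normalised CPM with empty vectors, 62.4, 56.6 and 52.2 with SETBP1, 83.1, 108 and 105 with NRAS and 82.9, 82.5 and 89.9 with SETBP1+NRAS. The libraries with NRAS were all above, and the SETBP1 libraries all below, those with empty vectors. Dhx58, the third gene of that receptor family, was at 0.18 (SE 0.11) and did not pass.

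Oas3 read 42.0, 46.6 and 49.7 normalised CPM with empty vectors, 38.8, 44.8 and 44.8 with SETBP1, 59.1, 67.5 and 67.6 with NRAS and 42.1, 41.6 and 51.1 with SETBP1+NRAS. The NRAS group alone was raised, by log2 0.49 (SE 0.11, adjusted p 0.0048) against empty. Isg20, an RNA exonuclease gene, read 21.1, 20.8 and 21.2 with empty vectors, 17.3, 18.7 and 24.1 with SETBP1, 27.1, 38.0 and 27.9 with NRAS and 17.1, 14.0 and 21.5 with SETBP1+NRAS. It showed the same pattern, at 0.56 (SE 0.18, adjusted p 0.0325) for NRAS against empty. Xaf1 rose by 0.58 (SE 0.18, adjusted p 0.0256), Ifitm3 by 0.49 and Bst2 by 0.45. With all 12 libraries, these 3 were the genes that passed the test as higher in both single-mutant comparisons, which share the empty libraries. Xaf1 read 33.7, 45.3 and 35.1 with empty vectors, 55.2, 59.2 and 76.3 with SETBP1, 47.2, 65.1 and 58.1 with NRAS and 48.95, 41.2 and 62.7 with SETBP1+NRAS. Both single-mutant groups lay above the empty libraries, and SETBP1+NRAS overlapped them.

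Among the falls, Ifi27l2a, which encodes a small interferon-induced membrane protein, read 68.8, 83.4 and 73.7 normalised CPM with empty vectors and 32.8, 37.7 and 24.3 with NRAS. The SETBP1 libraries read 72.0, 109 and 144 and the SETBP1+NRAS libraries 23.5, 22.9 and 29.5. The groups with and without NRAS did not overlap. The change with NRAS was log2 -1.25 (SE 0.22, adjusted p 0.000668), to 42.0% of the empty level.

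Ifit2 read 60.5, 55.1 and 57.6 normalised CPM with empty vectors, 65.6, 76.3 and 56.2 with SETBP1, 25.8, 30.6 and 33.5 with NRAS and 30.9, 16.4 and 39.3 with SETBP1+NRAS. All 6 libraries with NRAS lay below all 6 without it. The log2 fold change with NRAS was -0.95 (SE 0.23, adjusted p 0.00557). Its neighbour Ifit3, at 21.4, 24.5 and 26.6 with empty vectors, 35.3, 35.8 and 53.7 with SETBP1, 15.7, 16.8 and 13.6 with NRAS and 16.8, 11.01 and 21.8 with SETBP1+NRAS, rose with SETBP1 and fell with NRAS. The NRAS change was -0.65 (SE 0.23, adjusted p 0.0431). For Ifit1 the NRAS and empty libraries overlapped, at 0.06 (SE 0.26).

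The guanylate-binding proteins are GTPases that attack the membranes of intracellular pathogens. All 3 listed genes fell with NRAS, with log2 fold changes of -0.94 for Gbp2 (SE 0.25, adjusted p 0.0097), -0.72 for Gbp3 (SE 0.12) and -0.67 for Gbp7 (SE 0.10). Gbp2 read 19.5, 18.4 and 19.8 normalised CPM with empty vectors, 22.2, 26.0 and 44.1 with SETBP1, 8.59, 12.3 and 9.13 with NRAS and 9.23, 7.42 and 10.6 with SETBP1+NRAS. The order SETBP1, empty, NRAS held without overlap. The immunity-related GTPase genes Ifi47, Igtp, Irgm1 and Irgm2, of related function, did not pass the test with NRAS, at -0.10, 0.15, 0.08 and -0.29. Stat2 fell by 0.32 on the log2 scale (SE 0.10, adjusted p 0.027).

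The level of Gbp3 with SETBP1 and with NRAS went opposite ways, as for Ifit3, and these 2 genes passed the test as higher in one comparison and lower in the other. With all 12 libraries, a further 8 genes passed only for SETBP1 against empty. In that fit 5 passed as higher and 5 as lower only for NRAS against empty, and 20 for neither. Passing in one alone does not show that the effects differ. Without SETBP1 replicate 3, Irf7, Isg15, Oas1a and Oasl1, of the 8, also passed as higher with NRAS, and Ifi35 lost its SETBP1 call. The share of all genes in such joint sets was not counted.

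Without SETBP1 replicate 3 the NRAS comparison gave 15 higher and 8 lower of the 43 genes, against 24.4% and 22.6% of all genes. The log2 fold change of Usp18 was 1.15 in both fits, while its SE went from 0.25 to 0.13. The genes added were Irf7, Isg15, Mx1, Oas1a, Oasl1, Rsad2 and Trim30a among the higher and Dtx3l among the lower. Fitting the 6 NRAS and empty libraries alone called 16 higher and 8 lower, against 24.4% and 24.6% of all genes. Without NRAS replicate 2, which held the highest NRAS value for 34 of the 43 genes, 3 rose and 5 fell, against 13.2% and 11.7% of all genes. The rises and falls numbered 3 and 6 without empty replicate 1, against 12.3% and 11.8%, and 4 and 5 without empty replicate 3, against 12.8% and 12.5%. Xaf1 did not pass without NRAS replicate 2 or 3 or empty replicate 1 or 3, nor Isg20 without NRAS replicate 2 or any 1 empty library or with library-size scaling.

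**Figure D4:**
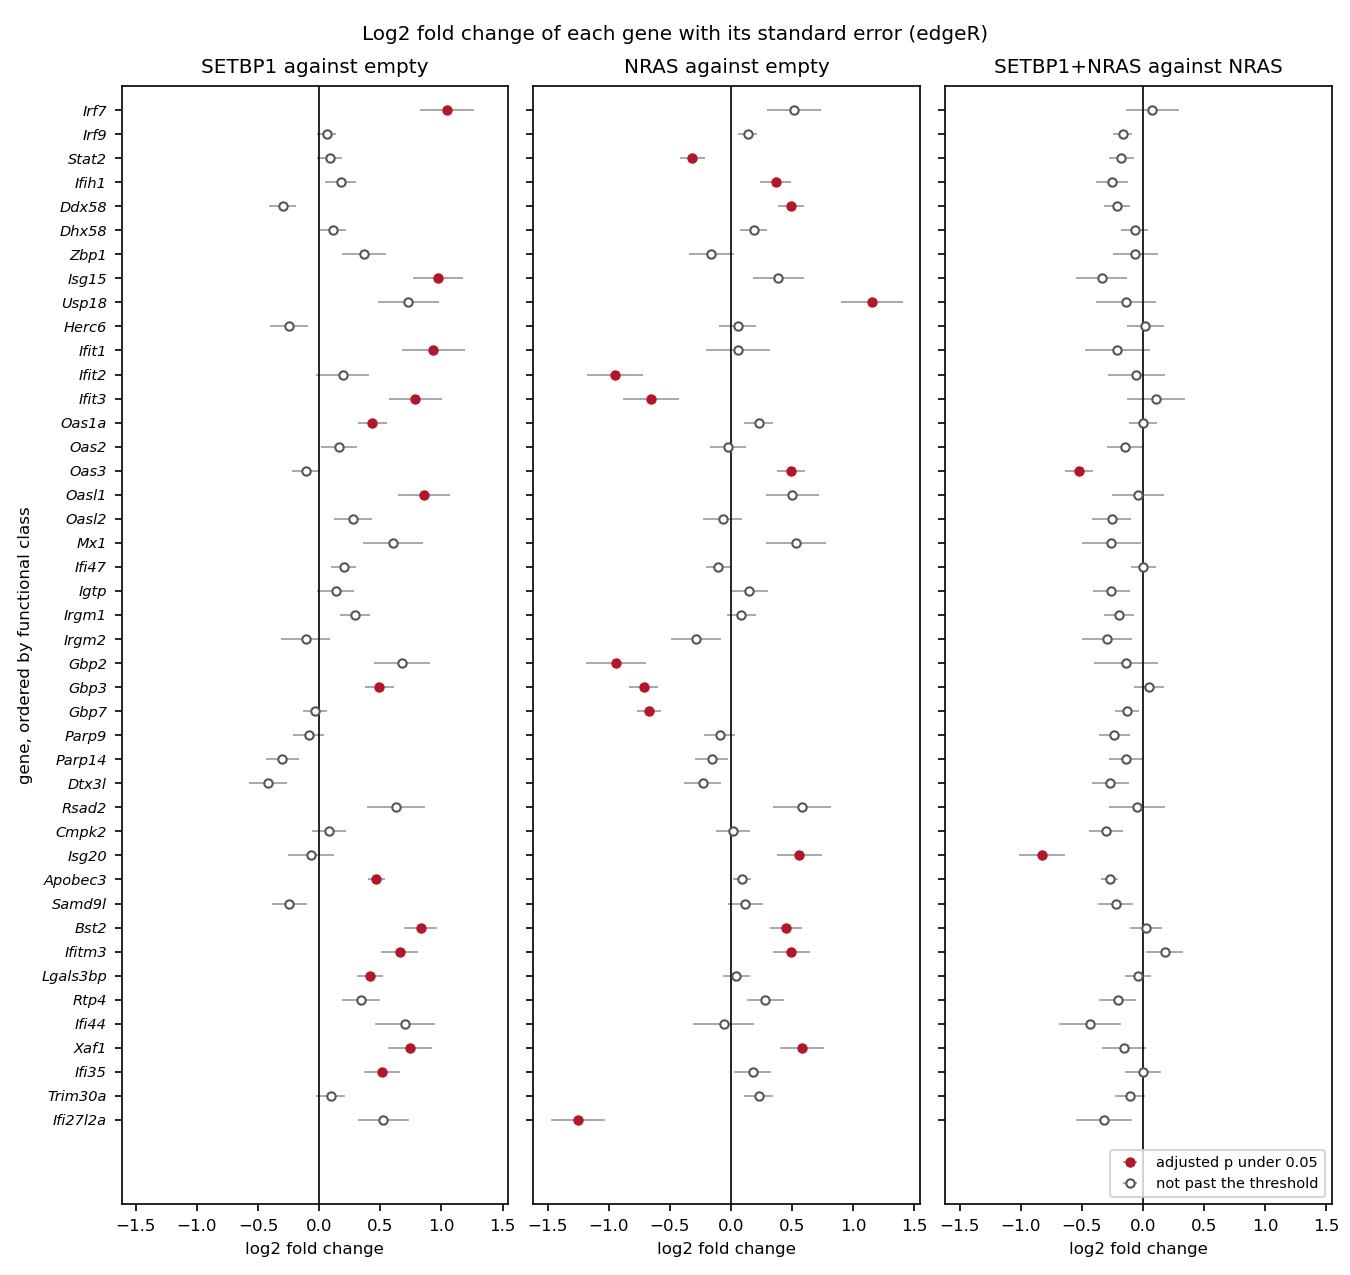
Log2 fold change of each of the 43 genes with its standard error (horizontal bars) for SETBP1 against empty, NRAS against empty and SETBP1+NRAS against NRAS, with filled points where the adjusted p was under 0.05. The first panel has 13 filled points, all to the right of 0, the second has 8 to the right and 7 to the left, and the third has 2, both to the left.

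Adding mutant SETBP1 to mutant NRAS raised none of the 43 genes and lowered 2, against 0.528% and 1.38% of all genes (edgeR, adjusted p under 0.05). The median was -0.16, against 0.00 over all genes, and 36 of the 43 were negative. DESeq2 called 0 higher and 3 lower, against 1.19% and 2.26% of all genes. The 2 genes called by edgeR were Isg20, at -0.82 (SE 0.19, adjusted p 0.0395), and Oas3, at -0.53 (SE 0.12, adjusted p 0.0322). Both had risen with NRAS alone, and their SETBP1+NRAS libraries overlapped the empty ones. Values did not overlap for 6 genes, all lower, against 12.9% of all genes. Irf7, the largest rise with SETBP1 alone, was at 0.07 (SE 0.22) in this comparison and Ifit1 at -0.21 (SE 0.26).

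Neither call was stable to the loss of a library. Without NRAS replicate 2 or 3, without SETBP1+NRAS replicate 1 or 2, or without empty replicate 2, 0 of the genes passed. Isg20 also lost its call without NRAS replicate 1 or any 1 empty library and with a replicate block (adjusted p 0.0596). Without SETBP1 replicate 3, 0 rose and 3 fell, against 3.21% and 4.31% of all genes, with Apobec3 the third at -0.27 (SE 0.06, adjusted p 0.0103).

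Set against empty vectors, SETBP1+NRAS raised 4 of the 43 genes and lowered 8, against 20.8% and 19.8% of all genes, with a median of -0.11. Usp18 rose by 1.01 (SE 0.25, adjusted p 0.00521), Ifitm3 by 0.67 (SE 0.15, adjusted p 0.00301), Irf7 by 0.59 (SE 0.22, adjusted p 0.0456) and Bst2 by 0.47. Irf7 did not pass without NRAS replicate 3, SETBP1+NRAS replicate 1 or 3 or any 1 empty library, with limma-voom, or with library-size or upper-quartile scaling. The falls were Ifi27l2a at -1.57 (SE 0.22, adjusted p 8.2e-05), Gbp2 at -1.08 (SE 0.25), Ifit2 at -1.003 (SE 0.23), Gbp7 at -0.80, Gbp3 at -0.67, Irgm2 at -0.58, Dtx3l at -0.50 and Stat2 at -0.49. Library-size scaling gave 3 higher and 14 lower, against 15.1% and 26.5% of all genes, and upper-quartile scaling 3 higher and 11 lower, against 17.6% and 23.0%. Without SETBP1 replicate 3 the counts were 9 higher and 14 lower, against 27.1% and 26.6% of all genes.

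Against SETBP1 alone, SETBP1+NRAS raised 1 gene and lowered 18, against 20.9% and 21.5% of all genes, with a median of -0.34. Ddx58 rose, by 0.58 (SE 0.11, adjusted p 0.000887). The largest falls were in Ifi27l2a at -2.10 (SE 0.23, adjusted p 7.63e-06), Gbp2 at -1.76 (SE 0.25, adjusted p 7.94e-05) and Ifit3 at -1.33 (SE 0.23, adjusted p 0.000369). All 3 Ifit genes fell, with Ifit2 at -1.20 and Ifit1 at -1.08, as did Isg15 at -0.92 and Apobec3 at -0.65. Ifitm3 (0.01, SE 0.15) and Usp18 (0.29, SE 0.25) did not pass. Without SETBP1 replicate 3, 2 rose and 18 fell, against 23.6% and 22.9% of all genes, the median was -0.21, Usp18 passed at 0.72 (SE 0.15, adjusted p 0.00059) and Bst2 did not at -0.21 (SE 0.11).

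Whether SETBP1 acted differently on the 2 backgrounds was tested by the interaction, the log2 change from NRAS to SETBP1+NRAS less that from empty to SETBP1. Its median over the 43 genes was -0.44, against -0.01 over all genes, and 38 were negative. No listed gene changed the sign of its interaction under another scaling. A single gene passed the test, as lower, against 0.0364% of all genes. This was Apobec3, at -0.74 (SE 0.10, adjusted p 0.0178). Its SETBP1+NRAS libraries read 143, 141 and 153 normalised CPM and its NRAS libraries 172, 167 and 189, so it was higher with SETBP1 in all 3 libraries without NRAS and lower in all 3 with it.

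Isg15 had the largest estimate, at -1.31 (SE 0.29, adjusted p 0.178), and did not pass. Without SETBP1 replicate 3 the genes that passed were 3, all lower, against 0.522% of all genes, namely Apobec3 at -0.71 (SE 0.10, adjusted p 0.000937), Isg15 at -1.10 (SE 0.23, adjusted p 0.0241) and Bst2 at -0.66 (SE 0.15, adjusted p 0.0295). The median was then -0.33. Apobec3 did not pass without SETBP1+NRAS replicate 1 or 2 or any 1 of the empty libraries, where its estimate stayed between -0.72 and -0.76.

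**Figure D5:**
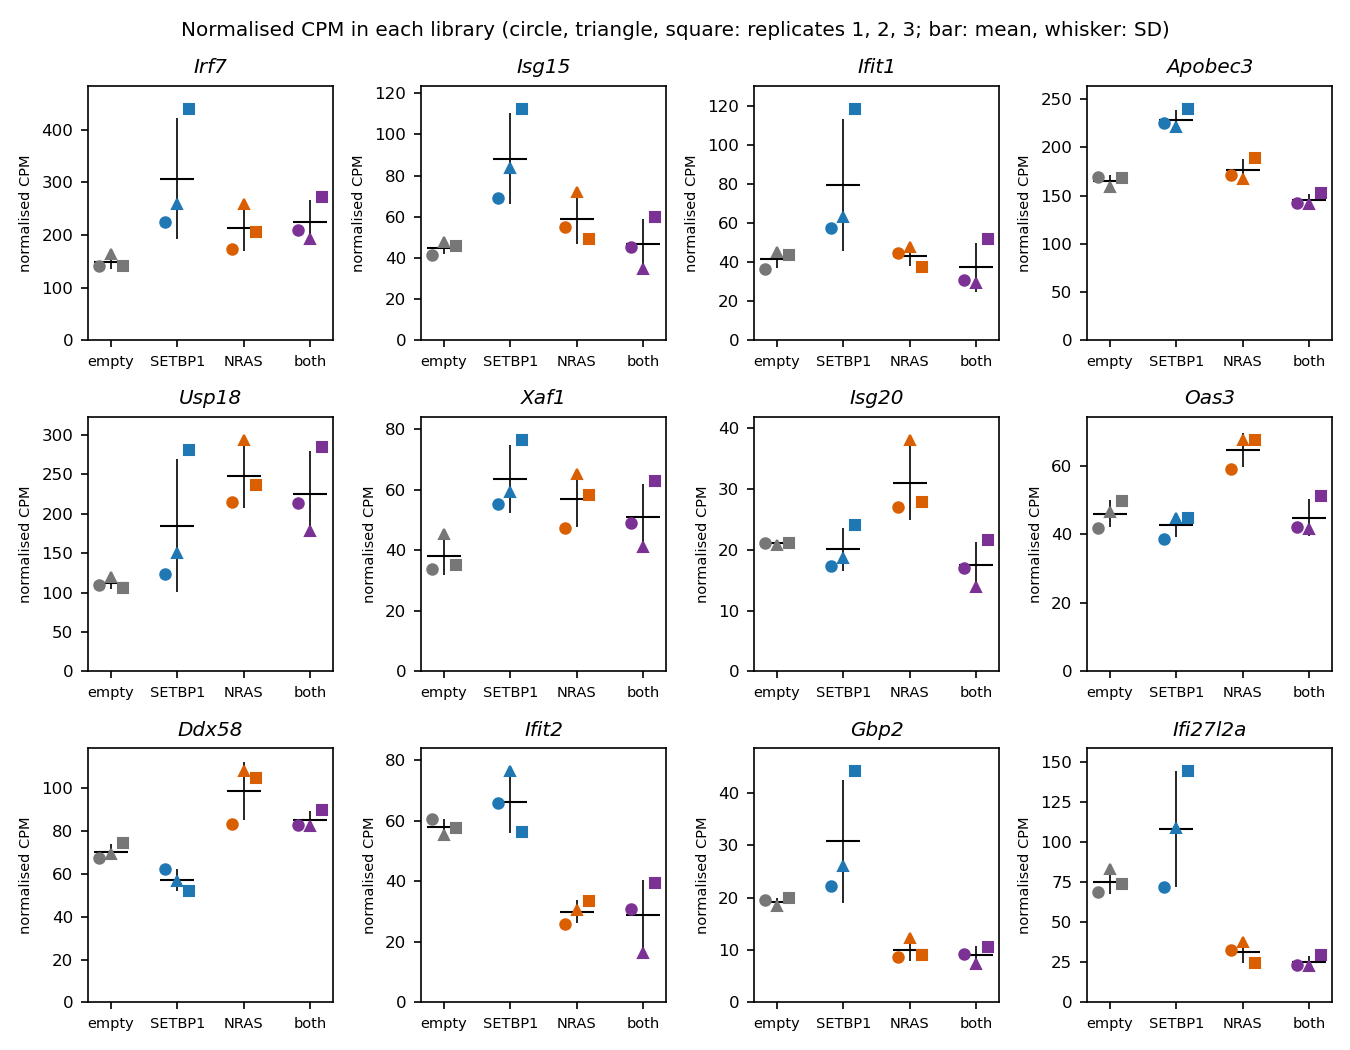
Normalised CPM of 12 interferon-stimulated genes in each library, with the mean (bar) and SD (whisker, n = 3) of each group, where both stands for SETBP1+NRAS. By group mean, Irf7, Isg15 and Ifit1 are highest with SETBP1, Usp18 and Ddx58 in the groups with NRAS, and Isg20 and Oas3 with NRAS alone. Ifit2, Gbp2 and Ifi27l2a are low in every library with NRAS.

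Within groups the listed genes moved together from library to library. SETBP1+NRAS replicate 3 held the highest value of its group for 41 of the 43 genes and replicate 2 the lowest for 35, where over all genes these libraries were highest and lowest for 33.2% and 37.7%. NRAS replicate 2 was highest for 34 of 43, against 31.7% of all genes, and SETBP1 replicate 1 lowest for 28, against 33.2%. The median log2 ratio of the 43 genes to the empty mean was 0.14, 0.25 and 0.55 in the SETBP1 libraries, 0.03, 0.18 and 0.11 with NRAS, and -0.19, -0.21 and 0.13 with SETBP1+NRAS. Genes that share this swing are not independent of each other. Without SETBP1+NRAS replicate 3 the falls against SETBP1 numbered 21 and the rises 1, against 17.6% and 17.1% of all genes.

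Interferon transcripts themselves were at or near 0. Of 9 ligand genes looked up, none had enough reads to be tested. Ifnb1 had 0, 0 and 2 counts with empty vectors, 0, 0 and 3 with SETBP1, 7, 3 and 0 with NRAS and 13, 0 and 2 with SETBP1+NRAS. The library with 13 counts of Ifnb1, SETBP1+NRAS replicate 1, also had 6 of Ifna2, and SETBP1+NRAS replicate 3 had 0 of Ifna2. A relation of these low counts to the levels of the listed genes was not tested. Ifng, Ifne, Ifnl2 and Ifnl3 had 0 counts in every library, which allows up to 0.338 to 0.423 CPM (3 counts of a library's total, counting error only).

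Of 7 receptor and kinase genes tested, 2 fell with SETBP1, Jak2 at log2 -1.02 and Jak1 at -0.60, against 6.55% of all genes. With NRAS 3 fell, against 15.5% of all genes. They were Ifngr1, the ligand-binding chain of the interferon gamma receptor, at -0.92 (SE 0.07), Tyk2 at -0.53 and Ifnar2 at -0.38. When SETBP1 replicate 3 was left out, 3 fell with SETBP1, against 7.73% of all genes. With NRAS 1 rose and 4 fell in that fit, against 24.4% and 22.6%. Ifngr1 went from 413 ± 17.0 normalised CPM with empty vectors to 217 ± 13.4 with NRAS and 157 ± 4.71 with SETBP1+NRAS (SD, n = 3), and SETBP1+NRAS against NRAS it was at -0.47 (SE 0.07, edgeR adjusted p 0.00496).

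Of 9 transcription factors of the pathway, 2 rose with SETBP1, Batf2 by 1.40 (SE 0.36) and the myeloid regulator Irf8 by 0.81 (SE 0.15), and 3 fell with NRAS. These were Ciita, the activator of MHC class II genes, at -1.79 (SE 0.61), Irf1, an early target of interferon gamma, at -0.75 (SE 0.14) and Irf8 at -0.69 (SE 0.16). Irf8 alone rose with SETBP1 once SETBP1 replicate 3 was left out, Batf2 was then at 0.83 (SE 0.30, adjusted p 0.0689), and with NRAS 2 rose and 4 fell. Of 16 sensors and adaptors tested, 3 rose with SETBP1, led by the DNA sensor family gene Ifi205 at 1.62, and with NRAS Tlr7 rose by 0.66 while Ikbke was lower at -0.50. Of 8 negative regulators, Nlrx1 fell with SETBP1 at -0.72 and with NRAS at -0.68, and Rnf125 fell with NRAS at -1.08. In the fit that leaves out SETBP1 replicate 3, 2 sensors and adaptors rose with SETBP1, 2 rose and 2 fell with NRAS, and the negative regulators that fell numbered 1 with SETBP1 and 4 with NRAS. These lists are small. As their background, 8.31% of all genes rose and 6.55% fell with SETBP1, and 17.0% and 15.5% with NRAS. In the fit without SETBP1 replicate 3 the shares were 7.61% and 7.73% with SETBP1, and 24.4% and 22.6% with NRAS.

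Of 82 further interferon-stimulated genes tested, 17 rose and 2 fell with SETBP1, with a median of 0.18, where 8.31% and 6.55% of all genes did so. With NRAS 11 rose and 13 fell, with a median of -0.03, below the 17.0% of all genes that rose and near the 15.5% that fell. The counts without SETBP1 replicate 3 were 17 and 3 with SETBP1, with a median of 0.09 and against 7.61% and 7.73% of all genes, and 23 and 24 with NRAS, against 24.4% and 22.6%. The chemokine genes Ccl5 and Cxcl10 led the rises with SETBP1 at 2.23 and 1.93, followed by Phf11d at 1.01 and Ms4a6d at 0.99, and without that library Cxcl10 was at 1.12. Cxcl10 also rose with NRAS, by 2.28, with Slfn4 at 1.91. The guanylate-binding genes Gbp8 and Gbp5 fell with NRAS, at -2.27 and -2.01, in the same direction as Gbp2, Gbp3 and Gbp7. For SETBP1+NRAS against NRAS, 0 of the 82 rose and 2 fell, against 0.528% and 1.38% of all genes. The 2 were Uba7, the ISG15-activating enzyme, at -0.48 and Ifi27 at -0.43. Leaving out SETBP1 replicate 3 gave 2 rises and 6 falls, against 3.21% and 4.31% of all genes.

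Markers of other cells also differed between the groups. Of all genes, 8.31% rose and 6.55% fell with SETBP1, 17.0% and 15.5% with NRAS, and 20.8% and 19.8% with SETBP1+NRAS against empty. Without SETBP1 replicate 3 these shares were 7.61% and 7.73%, 24.4% and 22.6%, and 27.1% and 26.6%. Of 13 monocyte and macrophage markers, 7 rose and 0 fell with SETBP1, with and without SETBP1 replicate 3. Their median was 0.53 with that library and 0.32 without it. Among the rises were Marco at 3.97, C1qa at 1.74 and Cd14 at 1.56, which stood at 3.90, 1.41 and 1.12 without it. With NRAS 2 rose and 5 fell, or 4 and 9 without SETBP1 replicate 3. The summed level of the 13 ran from 4462 to 4952 normalised CPM in the empty libraries, 5158 to 6858 with SETBP1, 4135 to 4500 with NRAS and 4052 to 4478 with SETBP1+NRAS. Of 10 neutrophil markers tested, 8 fell with SETBP1 and 2 rose and 5 fell with NRAS, or 9, 2 and 6 without SETBP1 replicate 3. Their summed level lay between 10431 and 11796 in the empty libraries, 4645 and 6793 in the SETBP1 libraries, 5390 and 6980 in the NRAS libraries, and 1780 and 2225 in the SETBP1+NRAS libraries. The 5 markers of granulocyte and monocyte progenitors fell with NRAS and with SETBP1+NRAS against empty, and 2 of them with SETBP1 (3 without SETBP1 replicate 3). They summed to 24584 to 27211 normalised CPM with empty vectors, 18208 to 19994 with SETBP1, 9863 to 11478 with NRAS and 5750 to 6304 with SETBP1+NRAS. Of 9 mast cell and basophil markers, 5 fell with SETBP1 (7 without SETBP1 replicate 3), 9 with NRAS and 8 with SETBP1+NRAS. They summed to 2984 to 3058 with empty vectors, 1612 to 2299 with SETBP1, 522 to 863 with NRAS and 249 to 367 with SETBP1+NRAS. The part of these shifts in the values of the interferon-stimulated genes was not tested. Plasmacytoid dendritic cells are strong producers of type I interferon. Of their 9 markers, Siglech, Ccr9, Klk1 and Pacsin1 had at most 5 counts in any library and Ly6d at most 9. In the SETBP1+NRAS libraries Siglech, Ccr9 and Klk1 had 0, Pacsin1 had 2, 0 and 2, and Ly6d had 2, 1 and 3. These counts are too low to compare the groups. The sum of the 9 ran from 82.9 to 86.2 normalised CPM with empty vectors, 99.95 to 114.6 with SETBP1, 100.5 to 102.9 with NRAS and 130.7 to 137.3 with SETBP1+NRAS. Most of that sum came from Tcf4, with a mean of 36.1 with empty vectors and 76.1 with SETBP1+NRAS, and Runx2, at 14.6 and 32.8. Bcl11a stood at 22.6 and 15.2, and Cox6a2 at 9.78 and 9.64. Of B-cell and of T-cell and NK-cell markers, 1 of 7 and 1 of 8 had enough reads to be tested.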

How the data were processed

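Total RNA of 12 libraries, 3 in each of 4 groups, was extracted with an RNeasy micro kit and made into libraries with SmartSeq for ultra-low input, per the labels' protocols. The authors deposited 1 table of whole-number read counts per gene symbol, not normalised. STAR, DESeq2 and mm10 are named in the submitters' processing notes with no role or version, and the counting rule for strand and shared reads is not given in the sources used here. Of the 19910 genes, 5080 had no count in any library. The members and the gene lists were chosen with earlier results of these data known, and 1 gene of a background list is not reported here.

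Counts were tested with edgeR 4.0.16 in R 4.3.3 (TMM scaling, filterByExpr at a minimum count of 10 and total of 15, quasi-likelihood F test on 4 group means of all 12 libraries, two-sided, Benjamini-Hochberg adjustment over all genes tested, threshold 0.05). SE is the absolute log2 fold change divided by the square root of F. Normalised CPM uses the TMM factors. Depth ran from 7085894 to 8864919 counts per library. Values in every library were given for genes among the 3 largest rises or falls past the threshold in a comparison (group mean count 50 or more in the highest group), those past the threshold in the interaction, and the most abundant gene of a class with neither. Genes outside the list were named from other lists where past the threshold, at most 4 a list and comparison. On simulated counts for SETBP1 against empty (10845 genes), the edgeR test recovered 77.8% of 2-fold and 93.0% of 4-fold changes, with 2.30% false among its calls. DESeq2 had 10.7% false among its calls there. The simulation drew each gene independently, with 200 genes set to change and no library set apart. Its rates need not hold for the real libraries, where SETBP1 replicate 3 stood apart and listed genes moved together. Shared 50-base stretches and lengths came from GENCODE M21, promoters from RefSeq, both GRCm38, the assembly of mm10. Alternatives were DESeq2 1.42.0, limma-voom (limma 3.58.1), 3 other scalings, no low-count filter, only the groups compared, a replicate block, and each library left out, with the filter applied anew.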

Additional observations from a re-analysis of the deposited data

Results flagged for a closer look

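The SETBP1 effect on Apobec3 differed between the backgrounds by the interaction test. SETBP1 changed it by 0.47 on the log2 scale without NRAS and by -0.27 with NRAS, a difference of -0.74 (SE 0.10, edgeR quasi-likelihood, adjusted p 0.0178). Every SETBP1 library lay above every empty library, and every SETBP1+NRAS library below every NRAS library. The adjusted p ran from 1.07e-07 to 0.129 over the 19 alternatives, 14 of which kept the call.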

How the results depend on the processing

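No gene called in a comparison changed sign there under RLE, library-size and upper-quartile scaling. Library-size scaling moved the median of all genes for SETBP1+NRAS against empty to -0.13 and that of the 43 genes to -0.23. Fitting only the groups compared changed the calls among listed genes from 13 to 3 for SETBP1 against empty. For NRAS against empty they went from 15 to 24, and for SETBP1+NRAS against empty from 12 to 24. In the same order, the share of all genes called went from 14.9% to 1.03%, 32.5% to 49.1% and 40.6% to 56.5%. DESeq2 called 3 in the interaction, where edgeR called 1, against 0.737% and 0.0455% of all genes. Leaving out each library in turn gave 3 to 23 calls for SETBP1 against empty, 8 to 23 for NRAS against empty, 9 to 23 for SETBP1+NRAS against empty, 0 to 3 against NRAS, 14 to 25 against SETBP1 and 0 to 3 for the interaction. Over all genes these counts ran, in the same order, from 390 to 3191, 2681 to 5224, 3658 to 5969, 93 to 836, 3681 to 5166 and 1 to 110. Among the genes given in every library, 2 estimates changed sign, neither of them past the threshold. Mx1 for SETBP1+NRAS against empty ran from -0.019 without SETBP1+NRAS replicate 3 to 0.47, and Parp9 for NRAS against empty from -0.18 to 0.0075 without NRAS replicate 1. The causes were not tested. With a replicate block, calls for SETBP1+NRAS against NRAS went from 2 to 1, where the share of all genes went from 1.91% to 1.49%. The other 5 counts of listed genes stayed within 1.5 times. No strong pairing of libraries by replicate number was visible. Deviations of 18 same-numbered pairs correlated at -0.14 to 0.14, with 1 over 0.1, and those of 36 differently numbered pairs at -0.16 to 0.18. With 3 libraries per group, these values cannot show that pairing is absent. The smallest count of a listed gene in a library was 58, and 3 libraries per group limit these tests.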
